A study of Mus musculus with 20 samples.

Results

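Transcripts of macrophages were followed through RNA sequencing libraries of sorted germinal centre B cells by 10 gene symbols, C1qa, C1qb, C1qc, Csf1r, Lyz2, Cd68, Mpeg1, Vcam1, Hmox1 and Cfp. The 10 genes were picked by symbol as macrophage genes, and the rule itself used no measured level. They were, however, chosen with earlier results of these data known. Counts of them called, set beside the shares of all tested genes, are therefore descriptions. All 10 were found among the 23382 symbols of the tables, and all 10 were among the 11386 genes that were tested, those reaching 1 TPM in 5 or more libraries. TPM values count transcripts of a gene, allowing for transcript length, per 1000000 transcripts of the library. Each gene was at 1 TPM or more in all 20 libraries except Csf1r, which had 0.808 TPM in mutant centroblast library 4.

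The 20 libraries came from mouse germinal centre B cells in 4 groups of 5. Mutant centrocytes (Cgamma1Cre:+/-; Myd88L252P:+/-) and control centrocytes (Cgamma1Cre:+/-; Myd88L252P:WT) were B220+FAS+GL7+CXCR4-CD86+ on the sorter, the phenotype of light zone cells. Mutant and control centroblasts, of the same 2 genotypes, were B220+FAS+GL7+CXCR4+CD86-, the phenotype of the dividing cells of the dark zone. All 4 groups carried 1 copy of the C gamma 1 Cre, which acts in activated B cells, and the mutant groups were heterozygous for the L252P allele of Myd88, the adaptor of Toll-like and interleukin-1 receptors. Whether different mice gave the 5 libraries of a group is not in the labels, and p-values cover only the spread between these libraries, which may be technical.

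Tingible body macrophages are the resident phagocytes of the germinal centre and take up the B cells that die there. C1q, made of the chains of C1qa, C1qb and C1qc, starts the classical complement pathway, coats dying cells, and is made mostly by macrophages and dendritic cells. The other genes differ in how closely they are tied to the lineage. Csf1r is the growth factor receptor on which most tissue macrophages depend, whereas Vcam1 is also made by stroma and endothelium, Hmox1 by many stressed cells, Lyz2 by neutrophils, and Cfp by neutrophils and other leukocytes.

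The gates select B cells, and 12 of 12 B cell identity genes were tested. Their summed level was 13695 to 15066 TPM in mutant centrocytes, against 14439.9 to 16521 TPM in control centrocytes. The sum was 11941 to 13230.3 TPM in mutant centroblasts, against 13051 to 14343 TPM in control centroblasts. The 10 macrophage genes summed to 448 ± 119.8 TPM in mutant centrocytes and 356 ± 71.8 TPM in control centrocytes (mean ± SD, n = 5 each). In centroblasts the sum was 136 ± 43.0 TPM in mutant and 114 ± 9.70 TPM in control libraries. Between 12719 and 14092 genes were above 0 per library, and no pair of libraries held identical values. TPM keeps no read depth, so the depth is unknown and no counting interval can be given. These are bulk libraries, in which more cells of a type and more RNA per cell cannot be told apart.

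The 3 C1q genes lie side by side on chromosome 4, on the minus strand of GRCm38. C1qb runs over chr4:136880129-136886187, C1qc over chr4:136889804-136893065 and C1qa over chr4:136895917-136898803. Promoter sequences of 300 bases, 250 before the start of the gene and 50 after it, were found for 6 of the 10 genes in RefSeq (GRCm38). Those of C1qb and C1qc are printed first, since the C1q genes are the measure against which the other genes are set, and those of Cfp and Mpeg1 after them, since these genes had the highest levels of the 10 in centrocytes. Each is written 5′ to 3′ on the strand of its gene, and capitals mark GAGGAA, the core of the sites bound by PU.1, read on either strand, so that TTCCTC in capitals is a match on the opposite strand.
C1qb, chr4:136886151-136886450, minus strand: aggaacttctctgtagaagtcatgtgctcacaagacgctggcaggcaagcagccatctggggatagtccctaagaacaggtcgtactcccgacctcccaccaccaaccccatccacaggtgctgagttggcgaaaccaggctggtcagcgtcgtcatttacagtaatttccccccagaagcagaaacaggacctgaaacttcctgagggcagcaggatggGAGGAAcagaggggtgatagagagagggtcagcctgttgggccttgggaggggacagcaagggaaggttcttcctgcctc
C1qc, chr4:136892865-136893164, minus strand: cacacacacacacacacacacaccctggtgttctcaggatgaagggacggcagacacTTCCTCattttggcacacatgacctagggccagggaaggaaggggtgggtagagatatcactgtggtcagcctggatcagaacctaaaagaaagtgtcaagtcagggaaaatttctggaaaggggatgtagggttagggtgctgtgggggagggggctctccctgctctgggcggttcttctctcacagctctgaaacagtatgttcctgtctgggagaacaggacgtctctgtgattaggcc
Cfp, chrX:20931506-20931805, minus strand: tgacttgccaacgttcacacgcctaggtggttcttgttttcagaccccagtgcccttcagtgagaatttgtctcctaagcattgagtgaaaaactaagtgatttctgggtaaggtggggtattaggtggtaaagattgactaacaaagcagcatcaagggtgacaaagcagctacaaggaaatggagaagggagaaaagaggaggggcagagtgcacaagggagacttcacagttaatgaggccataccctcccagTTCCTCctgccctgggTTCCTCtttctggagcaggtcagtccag
Mpeg1, chr19:12460520-12460819, plus strand: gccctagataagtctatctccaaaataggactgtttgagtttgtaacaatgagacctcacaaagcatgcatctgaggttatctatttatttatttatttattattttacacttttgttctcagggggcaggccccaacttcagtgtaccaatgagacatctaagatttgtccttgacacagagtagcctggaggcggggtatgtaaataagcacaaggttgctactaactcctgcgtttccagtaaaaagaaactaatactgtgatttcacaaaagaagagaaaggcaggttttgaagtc

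The letters GAGGAA were present once in the windows of C1qb and C1qc, in 2 places in those of Cfp and Cd68, and not in those of Lyz2 and Mpeg1. In the C1qb window the match begins at base 221, counted from the first base printed, and in the C1qc window at base 58. The 2 matches of Cfp begin at bases 257 and 273. Of 32851 promoter windows of the same length in the table, 28.3% held these letters on either strand. The letters TGANTCA, the site bound by AP-1, were found in 2 places in the Cd68 window and in no other of the 6, against 7.81% of all windows. Both motifs are described as letters only.

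Centrocyte libraries held more of the macrophage transcripts than centroblast libraries in both genotypes. In mutants 8 of the 10 genes were higher in centrocytes (limma, Benjamini-Hochberg adjusted p under 0.05), against 48.8% of all tested genes, and 61.5% of all were called in either direction. In controls 9 of 10 were higher, against 21.2% of all tested genes, with 30.7% called in either direction. All 10 had a positive log2 fold change in both genotypes, in each of which the median of all tested genes was also positive. Called lower at the same threshold were 0 of the 10, against 12.6% of tested genes in mutant centrocytes and 9.48% in control centrocytes. Fold changes were computed on log2(TPM + 1) and are given with the standard error. The median log2 fold change of the 10 genes was 1.54 in mutants, where that of all tested genes was 0.34, and 1.78 in controls, where that of all tested genes was 0.14. The gene with the largest rise of the 10 in both genotypes was Cfp, and Lyz2 had the smallest difference.

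All 5 centrocyte libraries lay above all 5 centroblast libraries for 7 of the 10 genes in mutants, against 28.7% of tested genes, and for 8 of the 10 in controls, against 17.0% of tested genes. All 5 lay below for none of the 10, against 7.91% of tested genes in mutants and 9.51% in controls. The genes whose groups overlapped were C1qb, Hmox1 and Lyz2 in mutants, and Hmox1 and Lyz2 in controls. Scaling by the median of ratios set the median of all tested genes at 0.0142 in mutants, against 0.34 with TPM as deposited, and at 0.00386 in controls, against 0.14. Of all genes called between the zones in mutants, 50.6% were higher in centrocytes with that scaling and 79.5% without it. In controls the shares were 50.3% with it and 69.2% without it. Under that scaling 8 of the 10 macrophage genes were higher in mutants and 8 in controls.

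**Figure D1:**
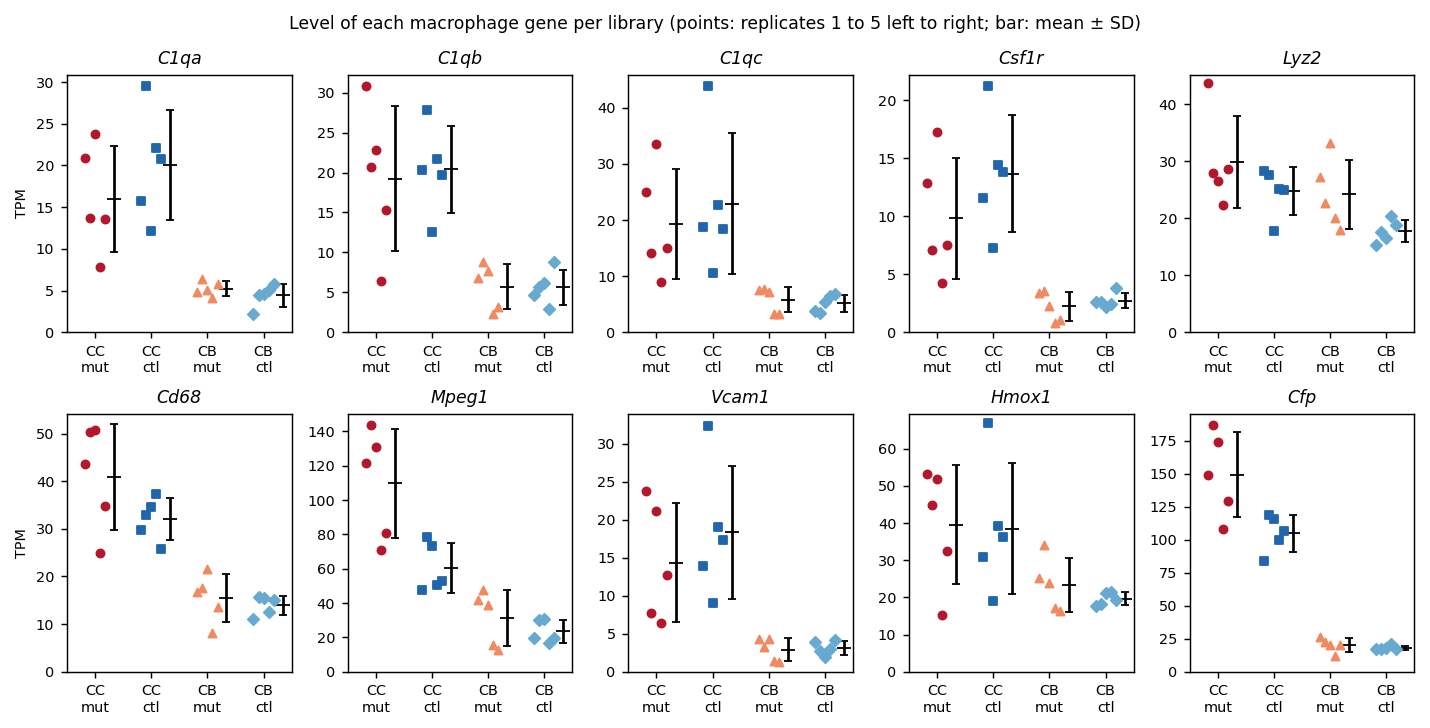
TPM (linear axis) of each of the 10 genes in every library; CC is centrocytes, CB centroblasts, mut Myd88 L252P and ctl control, points are libraries and bars the mean ± SD of 5. Cfp separates the gates most clearly, with 83.6 TPM or more in every centrocyte library and at most 26.4 TPM in centroblasts, while Lyz2 and Hmox1 overlap between them.

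The genes of the C1q chains rose together in centrocytes. C1qa had 20.9, 13.7, 23.8, 7.88 and 13.6 TPM in mutant centrocytes, against 15.7, 29.5, 12.1, 22.1 and 20.8 TPM in control centrocytes. In centroblasts it had 4.80, 6.45, 5.04, 4.09 and 5.85 TPM in the mutant libraries, against 2.18, 4.48, 4.60, 5.07 and 5.77 TPM in control centroblasts. Every centrocyte library exceeded every centroblast library of its genotype, and the mean was 3.04 times as high in mutants and 4.54 times as high in controls. The log2 fold change of C1qa was 1.37 ± 0.25 in mutants (adjusted p = 0.000134) and 1.94 ± 0.25 in controls (adjusted p = 7.60e-06). C1qb had 30.8, 20.7, 22.8, 6.46 and 15.4 TPM in mutant centrocytes, against 20.4, 27.8, 12.6, 21.6 and 19.7 TPM in control centrocytes. Mutant centroblasts had 6.81, 8.76, 7.70, 2.26 and 3.16 TPM of it, against 4.64, 5.71, 6.18, 2.89 and 8.82 TPM in control centroblasts. Mutant centrocyte library 4 lay below 3 of the 5 mutant centroblast libraries, and in controls the zones did not overlap. C1qb rose by 1.56 ± 0.35 on the log2 scale in mutants (adjusted p = 0.000676) and by 1.71 ± 0.35 in controls (adjusted p = 0.000819). C1qc had 25.0, 14.1, 33.5, 8.98 and 15.1 TPM in mutant centrocytes, against 18.8, 43.9, 10.6, 22.7 and 18.4 TPM in control centrocytes. In the mutant centroblast libraries it was at 7.50, 7.72, 7.11, 3.32 and 3.36 TPM, against 3.74, 3.45, 5.47, 6.45 and 6.77 TPM in control centroblasts. Control centrocyte library 2 was the highest of the 20, and the zones did not overlap in either genotype. C1qc rose by 1.52 ± 0.33 on the log2 scale in mutants (adjusted p = 0.000599) and by 1.85 ± 0.33 in controls (adjusted p = 0.000268). The 3 chains made up near equal parts of their sum in each group, with median shares between 0.281 and 0.413.

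Csf1r, the receptor for the macrophage growth factors CSF1 and IL-34, had lower levels than the C1q genes and the same direction. Csf1r had 12.9, 7.12, 17.3, 4.28 and 7.56 TPM in mutant centrocytes, against 11.6, 21.2, 7.29, 14.5 and 13.9 TPM in control centrocytes. Its level was 3.38, 3.60, 2.29, 0.808 and 1.11 TPM in mutant centroblasts, against 2.59, 2.63, 2.16, 2.49 and 3.80 TPM in control centroblasts. The zones did not overlap within a genotype, and the lowest values were those of mutant centroblast libraries 4 and 5. Csf1r rose by 1.71 ± 0.31 on the log2 scale in mutants (adjusted p = 0.000104) and by 1.92 ± 0.31 in controls (adjusted p = 8.48e-05). Vcam1 encodes an adhesion molecule that binds the integrin alpha 4 beta 1 and is abundant on splenic red pulp macrophages. Vcam1 had 23.8, 7.76, 21.2, 6.34 and 12.8 TPM in mutant centrocytes, against 13.9, 32.4, 8.97, 19.0 and 17.3 TPM in control centrocytes. In mutant centroblasts the values were 4.32, 3.28, 4.35, 1.36 and 1.26 TPM, against 3.88, 2.71, 1.93, 3.03 and 4.13 TPM in control centroblasts. Its centrocyte values were all above the centroblast values of the same genotype. Vcam1 rose by 1.91 ± 0.34 on the log2 scale in mutants (adjusted p = 9.81e-05) and by 2.14 ± 0.34 in controls (adjusted p = 8.39e-05), and its mean was 4.93 times as high in mutant centrocytes as in mutant centroblasts and 5.83 times as high in control centrocytes as in control centroblasts.

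Hmox1 and Lyz2 differed least between the gates. Hmox1 encodes haem oxygenase 1, which breaks haem down to biliverdin, iron and carbon monoxide. Hmox1 had 53.3, 44.99, 52.0, 15.2 and 32.6 TPM in mutant centrocytes, against 30.9, 66.8, 19.1, 39.2 and 36.3 TPM in control centrocytes. In centroblasts it had 25.2, 34.2, 23.8, 17.2 and 16.4 TPM in the mutant libraries, against 17.7, 18.2, 21.2, 21.6 and 19.4 TPM in control centroblasts. Mutant centrocyte library 4 was below all 5 mutant centroblast libraries, and control centrocyte library 3 was below 3 of the 5 control centroblast libraries. The log2 difference of Hmox1 was 0.66 ± 0.30 in mutants (limma adjusted p = 0.0573) and 0.83 ± 0.30 in controls (adjusted p = 0.0374). The call in controls was lost in 10 of 28 alternatives, among them the analysis with no filter on low values (adjusted p = 0.0647) and the one without control centrocyte library 2 (0.127), and over the 28 the adjusted p was 0.00982 to 0.127. In mutants Hmox1 passed in 5 of 28 alternatives, among them those without mutant centrocyte library 4 (log2 fold change 0.96, adjusted p = 0.00314), mutant centroblast library 2 (0.0279), control centrocyte library 2 (0.0392) and control centrocyte library 3 (0.0405), and over the 28 the adjusted p was 0.00314 to 0.392.

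Lyz2 encodes lysozyme M, the bactericidal enzyme of macrophages and granulocytes. Lyz2 had 43.7, 27.9, 26.6, 22.4 and 28.6 TPM in mutant centrocytes, against 28.2, 27.5, 17.7, 25.1 and 24.9 TPM in control centrocytes. Mutant centroblasts had 27.1, 22.7, 33.1, 20.04 and 17.97 TPM of it, against 15.3, 17.7, 16.6, 20.3 and 18.8 TPM in control centroblasts. The zones overlapped in both genotypes. Its log2 difference was 0.29 ± 0.17 in mutants (adjusted p = 0.146) and 0.45 ± 0.17 in controls (adjusted p = 0.051), neither of which passed. In controls 11 of 28 alternatives brought it past the threshold, among them the fit of the 2 control groups alone (adjusted p = 0.00921), and the adjusted p was 0.00921 to 0.127 over all 28. In mutants the alternatives gave log2 differences between -0.05 and 0.41, and Lyz2 passed in 1 of them, the analysis without mutant centroblast library 3 (0.41, adjusted p = 0.0416). Neutrophils also make Lyz2, and their 11 marker genes summed to 0.117 to 6.29 TPM in mutant centrocytes, 0.183 to 5.16 in control centrocytes, 0.0724 to 10.1 in mutant centroblasts and 0.0974 to 1.91 in control centroblasts. The part of neutrophils in the level of Lyz2 was not tested.

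Cd68, Mpeg1 and Cfp did not overlap between the zones in either genotype, and Mpeg1 and Cfp had the highest means of the 10 in centrocytes. Cd68 encodes a lysosomal glycoprotein of phagocytes, also called macrosialin. Cd68 had 43.7, 50.4, 50.8, 24.9 and 34.8 TPM in mutant centrocytes, against 29.8, 33.0, 34.7, 37.3 and 25.8 TPM in control centrocytes. Its level was 16.8, 17.5, 21.6, 8.04 and 13.7 TPM in mutant centroblasts, against 11.1, 15.6, 15.4, 12.6 and 15.04 TPM in control centroblasts. The lowest centrocyte value was that of mutant library 4, and the highest centroblast value that of mutant library 3. Cd68 rose by 1.36 ± 0.21 on the log2 scale in mutants (adjusted p = 1.70e-05) and by 1.15 ± 0.21 in controls (adjusted p = 0.000282). Mpeg1 encodes perforin 2, a pore-forming protein that acts on engulfed bacteria. Mpeg1 had 122, 144, 131, 71.1 and 80.8 TPM in mutant centrocytes, against 47.4, 78.6, 73.1, 50.2 and 52.7 TPM in control centrocytes. In mutant centroblasts the values were 41.9, 47.6, 39.1, 15.5 and 12.4 TPM, against 19.6, 30.3, 30.8, 17.0 and 19.9 TPM in control centroblasts. Mutant centroblast libraries 4 and 5 held the 2 lowest values of the 20. Mpeg1 rose by 1.91 ± 0.31 on the log2 scale in mutants (adjusted p = 4.24e-05) and by 1.33 ± 0.31 in controls (adjusted p = 0.00291).

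Cfp encodes properdin, which stabilises the convertase of the alternative complement pathway. Cfp had 149, 187, 174, 108 and 129 TPM in mutant centrocytes, against 83.6, 118, 116, 99.9 and 106 TPM in control centrocytes. In centroblasts it had 26.4, 22.1, 20.3, 11.6 and 20.04 TPM in the mutant libraries, against 17.2, 17.0, 18.3, 20.9 and 17.1 TPM in control centroblasts. Control centroblasts stayed within a narrow band, and every centrocyte library was over 3 times as high as any centroblast library. The mean of Cfp was 7.43 times as high in mutant centrocytes as in mutant centroblasts, and 5.79 times as high in control centrocytes as in control centroblasts. Its log2 fold change was 2.85 ± 0.17 in mutants (adjusted p = 6.90e-11) and 2.46 ± 0.17 in controls (adjusted p = 1.19e-09). Of all tested genes, 99.9% in mutants and 99.9% in controls had a lower log2 fold change than Cfp.

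Set against the summed C1q level of the same library, the genes differed in their proportions between the gates. The ratio of Lyz2 to the C1q sum had a median of 0.575 (0.332 to 0.960) in mutant centrocytes, against 1.45 (0.988 to 2.07) in mutant centroblasts (range over 5 libraries in brackets). In controls it was 0.424 (0.272 to 0.514) in centrocytes, against 1.29 (0.879 to 1.45) in centroblasts. Hmox1 showed the same order, with ratios of 0.696 (0.650 to 0.928) in mutant centrocytes, against 1.33 (1.20 to 1.78) in mutant centroblasts. For both genes the centrocyte ranges lay wholly below the centroblast ranges of the same genotype. The ratio of Cfp ran the other way in mutants, at 2.93 (1.94 to 4.63) in centrocytes, against 1.20 (0.965 to 1.62) in centroblasts, and its control ranges overlapped, at 1.52 (1.17 to 3.29) in centrocytes, against 1.25 (0.801 to 1.63) in centroblasts. The ratio of Csf1r was 0.172 (0.147 to 0.216) in mutant centrocytes and 0.211 (0.207 to 0.235) in control centrocytes. These ratios are descriptions with no test.

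**Figure D2:**
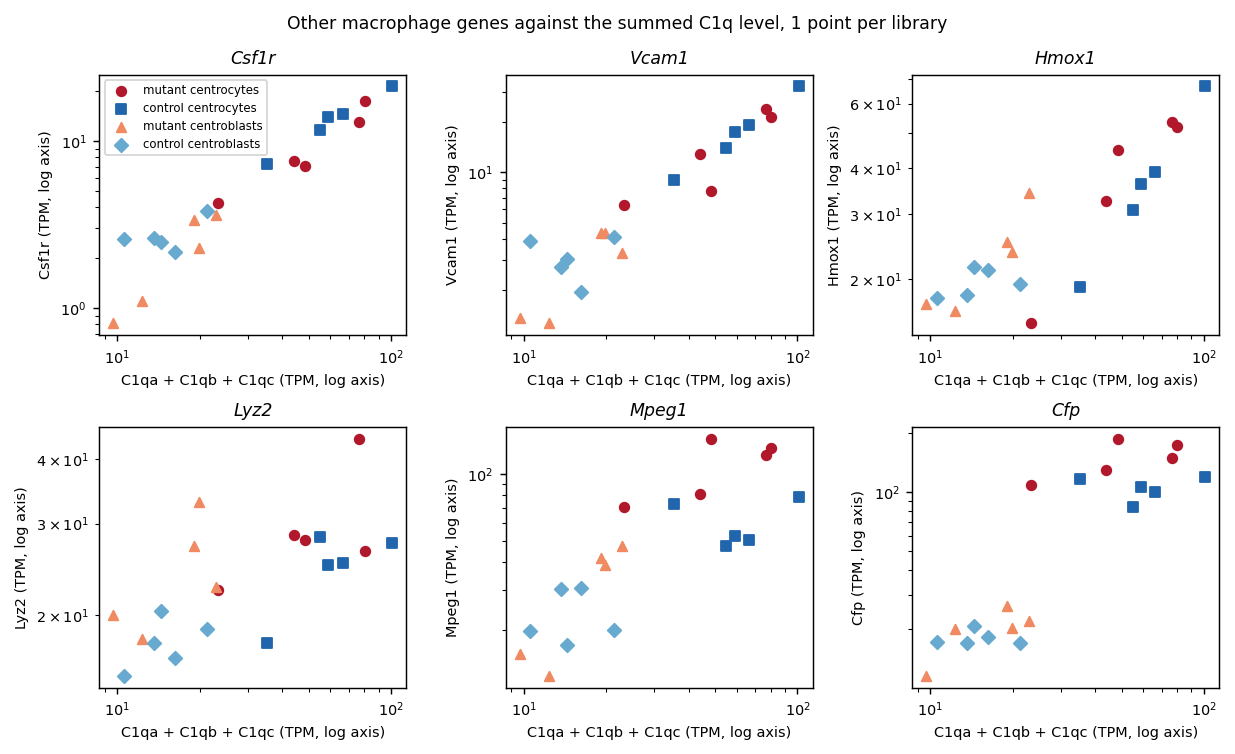
TPM of 6 genes (vertical, log axis) against the summed TPM of C1qa, C1qb and C1qc (horizontal, log axis), 1 point per library, coloured by group. Csf1r lies between 4.28 and 21.2 TPM and increases with the C1q sum in centrocytes, whereas Cfp forms a band of 83.6 to 187 TPM in centrocytes over C1q sums of 23.3 to 101 TPM.

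None of the 10 genes passed the threshold between mutant and control libraries in either gate. In centrocytes limma called 0 of 10 genes between mutant and control libraries, against 1.2% of all tested genes, and 2 had an unadjusted p under 0.05, against 9.61% of all. By limma they were Mpeg1, with a log2 difference of 0.83 ± 0.31 (adjusted p = 0.299), and Cfp, with 0.49 ± 0.17 (adjusted p = 0.219). Their means were 109.7 ± 31.9 TPM in mutant and 60.4 ± 14.4 TPM in control centrocytes for Mpeg1, and 149 ± 32.0 TPM in mutant and 105 ± 14.0 TPM in control centrocytes for Cfp (SD, n = 5 each). The groups overlapped for both, since mutant library 4 was within the control range, and the other 4 mutant libraries lay above all 5 controls for each gene. Without mutant centroblast libraries 4 and 5, which enter through the shared spread, both passed (adjusted p = 0.0358 for Mpeg1 and 0.0334 for Cfp). Over 28 alternatives the adjusted p of Mpeg1 was 0.0207 to 0.657 and that of Cfp 0.0334 to 0.593.

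The other genes leaned either way. Csf1r had a log2 difference of -0.50 ± 0.31 in centrocytes (95% interval -1.14 to 0.14), Vcam1 one of -0.38 ± 0.34 (-1.10 to 0.33) and C1qa one of -0.34 ± 0.25 (-0.87 to 0.19). Those of C1qb and C1qc were -0.19 ± 0.35 and -0.23 ± 0.33, Hmox1 had 0.03 ± 0.30, Lyz2 0.24 ± 0.17 and Cd68 0.30 ± 0.21. The C1q sum was 54.5 ± 23.8 TPM in mutant and 63.4 ± 24.1 TPM in control centrocytes (SD, n = 5 each), a difference smaller than the SD of either group.

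In centroblasts 0 of 10 were called between mutant and control libraries, against 4.29% of all tested genes (0.905% higher in mutants), and limma gave 1 an unadjusted p under 0.05, against 30.3% of all tested genes. By limma it was Lyz2, with 24.2 ± 6.05 TPM in mutant and 17.7 ± 1.95 TPM in control libraries (SD, n = 5 each) and a log2 difference of 0.40 ± 0.17 (adjusted p = 0.125). Scaling by the median of ratios set the median of all genes in this comparison at 0.0076, against -0.16, and the share of higher genes among all called at 44.5%, against 21.1%. It set the median of the difference between the genotype effects at -0.0084, against 0.18. Lyz2 then passed, with a log2 fold change of 0.58 (adjusted p = 0.0359), and over 28 alternatives its adjusted p was 0.0359 to 0.299. The C1q sum was 16.8 ± 5.54 TPM in mutant and 15.2 ± 3.99 TPM in control centroblasts. The difference between the genotype effects in the 2 gates was called for 0 of 10 genes, against 0.0176% of all tested genes, with 0 at an unadjusted p under 0.05. Its largest values were -0.58 ± 0.36 for C1qa and 0.57 ± 0.44 for Mpeg1 (adjusted p = 0.416 and 0.483). In no genotype comparison did the groups separate fully for any of the 10, against 2.63% of tested genes with all mutant libraries above and 1.99% with all below in centrocytes, and 0.755% and 2.99% in centroblasts.

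**Figure D3:**
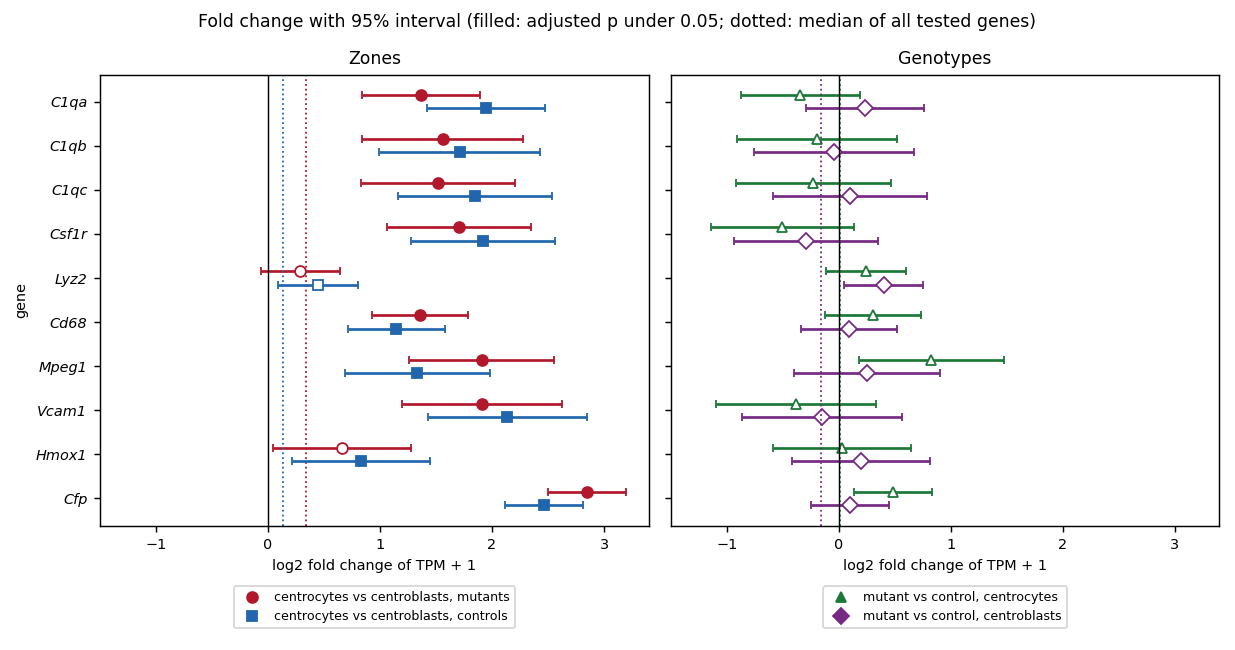
Log2 fold change of TPM + 1 (horizontal) with its 95% interval for each gene, between the zones on the left and between the genotypes on the right; filled symbols have an adjusted p under 0.05 and dotted lines mark the median of all tested genes. The zone differences of Cfp lie at 2.85 and 2.46, and no genotype difference is filled.

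Within a gate, the macrophage genes did not all vary together. Correlations were computed for the 45 pairs of genes over the 10 libraries of each gate, as deviations of log2(TPM + 1) from the mean of each genotype, with two-sided exact permutation tests over all arrangements within the genotypes and Benjamini-Hochberg adjustment over the 90 pairs of both gates. All pairs share libraries and the TPM scale. In centrocytes C1qa and Csf1r had r = 0.985 (exact permutation p = 0.000139, adjusted p = 0.00375) and rho = 0.952 (p = 0.000278, adjusted p = 0.00875), and r was 0.974 without the 2 libraries farthest from the median. No other tested gene had as high an r with either of them in these 10 libraries. In each pair the 2 libraries left out were those farthest from the median of the gene that comes first among the 10 as listed. C1qc and Csf1r had r = 0.975 (exact permutation p = 0.000208, adjusted p = 0.00375) and rho = 0.964 (p = 0.000278, adjusted p = 0.00875), and 0.985 without 2 libraries. C1qb and Hmox1 had r = 0.946 (exact permutation p = 0.000208, adjusted p = 0.00375) and rho = 0.952 (p = 0.000486, adjusted p = 0.00875), and 0.829 without 2 libraries.

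After these values were seen, the genes were described as 2 sets and Lyz2, with no test of the sets. The 15 pairs among C1qa, C1qb, C1qc, Csf1r, Vcam1 and Hmox1 had r between 0.811 and 0.985 in centrocytes, and between 0.693 and 0.985 without the 2 farthest libraries. The 3 pairs among Cd68, Mpeg1 and Cfp had r between 0.776 and 0.934, and between 0.612 and 0.896 without 2. By the adjusted p of r, 15 of the 15 pairs of the first set passed, but 1 of the 3 of the second, where the highest adjusted p was 0.0867 (exact permutation). By rho some pairs of the first set did not pass, among them C1qb with C1qc (exact permutation, adjusted p = 0.0579). The highest adjusted p of rho was 0.0613 in the first set and 0.179 in the second. The 18 pairs between the sets had r between 0.309 and 0.705, and between -0.308 and 0.729 without the 2 farthest libraries, a range that overlaps those within the sets, and 0 of the 18 passed. Since the sets were drawn from these same r values, the counts that passed follow in part from the grouping. Mpeg1 and Cfp had r = 0.934 (exact permutation p = 6.94e-05, adjusted p = 0.00375) and rho = 0.964 (p = 0.000625, adjusted p = 0.00937), where 6.9e-05 is the smallest p these arrangements can give, and r was 0.896 without 2 libraries. Of all tested genes, 0.387% had as high an r with Mpeg1 and 0.141% with Cfp. Between the sets, C1qa and Cfp had r = 0.544 (exact permutation p = 0.152, adjusted p = 0.244), which was 0.223 without mutant centrocyte library 4 and 0.0187 without the 2 farthest. Other pairs moved otherwise. Hmox1 and Cfp had r = 0.608, which was 0.284 without mutant centrocyte library 4 but 0.729 without the 2 farthest. The difference between 2 correlations was not tested.

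The libraries behind this can be named. Mutant centrocyte library 4 was the lowest of the 10 centrocyte libraries for all 6 genes of the first set, with 23.3 TPM of C1q in sum, and control centrocyte library 2 was the highest for C1qa, C1qc, Csf1r, Vcam1 and Hmox1, with 101 TPM of C1q. Mutant centrocyte library 2 was the highest of the 10 for Mpeg1 and Cfp, yet had 7.12 TPM of Csf1r and 7.76 TPM of Vcam1, the second lowest of the 10 for both. Control centrocyte library 1 was the lowest for Mpeg1 and Cfp and held 11.6 TPM of Csf1r. Lyz2 had r between 0.620 and 0.803 with the first set and between 0.0366 and 0.239 with Cd68, Mpeg1 and Cfp. With the first set 0 of the 6 pairs passed (exact permutation, adjusted p of r 0.0861 to 0.158), and rho was 0.430 to 0.661. Without the 2 farthest libraries the ranges of r overlapped, at 0.370 to 0.678 with the first set and 0.413 to 0.574 with Cd68, Mpeg1 and Cfp. The libraries left out followed the level of Lyz2 in its pairs with Vcam1, Hmox1, Cd68, Mpeg1 and Cfp. In its pairs with the C1q genes and Csf1r they followed the other gene, so these ranges rest on unlike omissions.

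In centroblasts the median r of the 45 pairs was 0.638, against 0.644 in centrocytes, and it rested on 2 libraries. Mutant centroblast libraries 4 and 5 had C1q sums of 9.66 and 12.4 TPM, against 19.1 to 22.9 TPM in the other 3 mutant centroblast libraries, and the fewest genes above 0 of the 20 libraries, 12895 and 12719. Without them, an alternative added after the data were seen, the median r was 0.105. C1qc and Hmox1 had r = 0.839 (exact permutation p = 0.00347, adjusted p = 0.0232) and rho = 0.867 (p = 0.0173, adjusted p = 0.0648), but r was 0.482 without the 2 farthest libraries, and C1qb and Cd68 had r = 0.819 (exact permutation p = 0.00694, adjusted p = 0.0347) and rho = 0.806 (p = 0.0127, adjusted p = 0.0613), with 0.734 without 2. C1qa, so close to Csf1r in centrocytes, had r = 0.300 with it in centroblasts (exact permutation p = 0.277, adjusted p = 0.323). C1qa had 2.18 to 6.45 TPM in that gate.

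**Figure D4:**
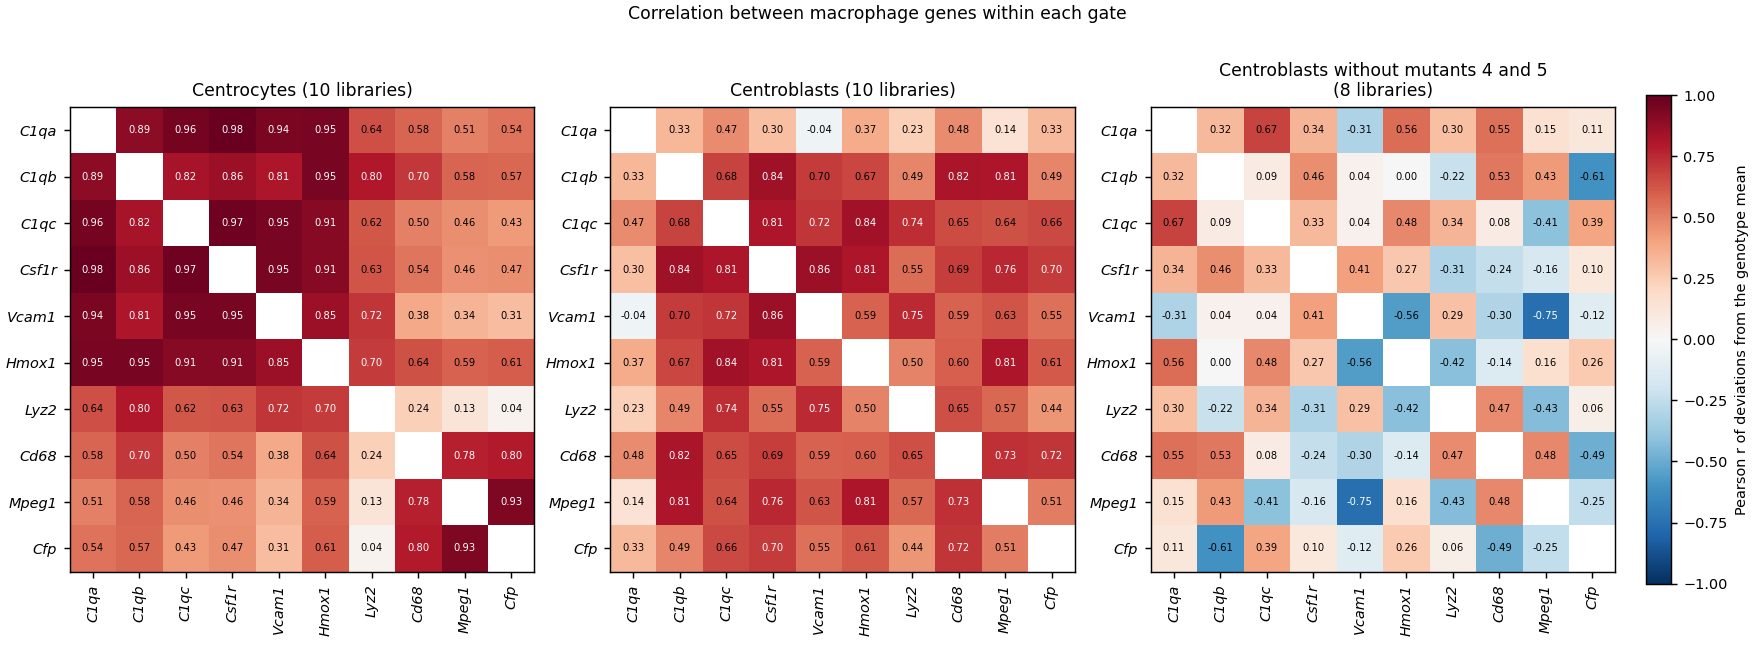
Pearson r between each pair of the 10 genes (deviations of log2(TPM + 1) from the genotype mean) over centrocytes, centroblasts, and centroblasts without mutant libraries 4 and 5; the colour scale runs from -1 to 1 and the cell text gives r. In centrocytes the pairs of C1qa, C1qb, C1qc, Csf1r, Vcam1 and Hmox1 lie between 0.811 and 0.985, and the centroblast pattern is lost without the 2 libraries, with a median r of 0.105.

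Genes whose level moved most like the C1q genes were ranked over the 20 libraries by r of deviations from the 4 group means, among 10106 genes and with no test. The 20 included mutant centroblast libraries 4 and 5, on which the median r between the 10 genes in centroblasts rested. With the mean of C1qa, C1qb and C1qc, 3 of the closest 10 were of the list itself, Csf1r (r = 0.931), Hmox1 (0.919) and Vcam1 (0.842). Also among the closest 10 were Slc40a1 (0.886), Spic (0.856), Axl (0.845), Sdc3 (0.845), Emr4 (0.839) and Mrc1 (0.824). Slc40a1, the iron exporter ferroportin, averaged 14.2 ± 6.87 and 17.0 ± 9.22 TPM in mutant and control centrocytes, against 2.74 ± 1.26 and 2.87 ± 0.556 TPM in mutant and control centroblasts (SD, n = 5 each). Spic, a transcription factor of red pulp macrophages, averaged 9.19 ± 2.81 and 8.83 ± 3.21 TPM in mutant and control centrocytes, against 2.28 ± 1.43 and 1.21 ± 0.312 TPM in mutant and control centroblasts. Axl, a receptor tyrosine kinase for phosphatidylserine-bound ligands, averaged 4.98 ± 2.89 and 6.76 ± 3.45 TPM in mutant and control centrocytes, against 0.887 ± 0.576 and 1.61 ± 0.257 TPM in mutant and control centroblasts. Mrc1, the mannose receptor, averaged 3.65 ± 2.01 and 4.71 ± 2.61 TPM in mutant and control centrocytes, against 0.742 ± 0.532 and 0.740 ± 0.308 TPM in mutant and control centroblasts.

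The remaining 4 genes of the list ranked lower for likeness to C1q, Cd68 at 72, Lyz2 at 73, Mpeg1 at 254 and Cfp at 304 of 10106. Among the 5 genes closest to Mpeg1 were Irf1 (r = 0.965), Cyfip1 (0.965), Fcrl5 (0.955) and Nlrc5 (0.955), and the C1q genes ranked 2942 (C1qb, r = 0.694), 5347 (C1qc, 0.495) and 6891 (C1qa, 0.283) for likeness to it. Within centrocytes the r of Mpeg1 was 0.580 with C1qb, 0.461 with C1qc and 0.508 with C1qa. Within centroblasts, with mutant libraries 4 and 5 included, these were 0.806, 0.638 and 0.142. High r with Mpeg1 was common. Of all tested genes, 25.9% in centrocytes and 25.4% in centroblasts had an r with Mpeg1 at least as high as that of C1qb. Irf1 is a transcription factor of the interferon response, and Fcrl5 is a receptor of B cells. Irf1 had means of 103 and 50.3 TPM in mutant and control centrocytes, against 61.3 and 32.0 TPM in mutant and control centroblasts. Closest to Cfp were Mafg (0.876), Adamtsl4 (0.841), Tgfbi (0.836), Slc27a1 (0.833) and Tlr7 (0.831), of which Tlr7 is an RNA-sensing Toll-like receptor. Closest to Cd68 were Dnm3 (0.865), Sub1 (0.864), Fhod3 (0.854), Rbm47 (0.839) and Ddt (0.835), and closest to Lyz2 were Ptgs1 (0.792), Glipr2 (0.743), Tspan4 (0.731), Gtf2ird1 (0.723) and Vcam1 (0.723). Csf1r, Vcam1 and Hmox1 each had C1qc and Slc40a1 among their closest 5.

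Other macrophage genes, 20 listed and 14 tested, rose in centrocytes in 9 cases and fell in 1 in mutants, and rose in 11 and fell in 1 in controls. Of all tested genes, 48.8% rose and 12.6% fell in mutant centrocytes, and 21.2% rose and 9.48% fell in control centrocytes. The list's median log2 fold change was 1.11 in mutants and 0.86 in controls, where those of all tested genes were 0.34 and 0.14. Tyrobp, the adaptor of TREM receptors, averaged 30.3 ± 7.22 and 27.8 ± 8.55 TPM in mutant and control centrocytes, against 8.54 ± 2.29 and 7.50 ± 0.689 TPM in mutant and control centroblasts (log2 fold change 1.72 ± 0.20, adjusted p = 6.29e-07, in mutants, and 1.72 ± 0.20, adjusted p = 1.72e-06, in controls). Emr1, which encodes the F4/80 antigen, averaged 12.4 ± 3.58 and 8.73 ± 2.78 TPM in mutant and control centrocytes, against 2.68 ± 1.53 and 2.04 ± 0.360 TPM in mutant and control centroblasts. The 4 members with the highest levels moved in different directions or not past the threshold. Apoe, the lipid carrier, averaged 723 ± 88.7 and 749.8 ± 133 TPM in mutant and control centrocytes, against 909.7 ± 229 and 841 ± 176 TPM in mutant and control centroblasts and passed in neither genotype, nor did Lgmn, a lysosomal protease. Sfpi1, the gene of PU.1, which B cells also express, fell by 0.35 ± 0.12 on the log2 scale in mutant centrocytes (adjusted p = 0.0179), and Ctss, a protease of antigen presentation in macrophages and B cells, rose by 0.74 ± 0.12 (adjusted p = 3.44e-05). Several defining genes were near 0, with Trem2 at 0 in all 10 centrocyte libraries and Fcgr1, Cx3cr1 and Msr1 at group means of at most 0.751 TPM. Between genotypes 1 of the 14 was called in centrocytes, against 1.2% of all tested genes, Itgam, an integrin chain, with a log2 fold change of 1.30 ± 0.20, adjusted p = 0.00197, and 0 in centroblasts, where limma gave 2 of 14 an unadjusted p under 0.05, against 30.3% of all tested genes.

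Of 16 genes of tingible body macrophages and engulfment, 10 were tested. In mutants 8 rose in centrocytes, and in controls 7 rose and 1 fell, with median log2 fold changes of 0.83 in mutants and 0.79 in controls. The shares of all tested genes were 48.8% higher in mutants, and 21.2% higher and 9.48% lower in controls, with medians of 0.34 and 0.14. Mertk, the receptor by which macrophages take up dying germinal centre B cells, averaged 1.62 ± 1.27 and 2.19 ± 1.30 TPM in mutant and control centrocytes, against 0.318 ± 0.213 and 0.153 ± 0.159 TPM in mutant and control centroblasts. On the log2 scale Mertk rose by 0.87 ± 0.27, limma adjusted p = 0.00894, in mutants and 1.40 ± 0.27, limma adjusted p = 0.000586, in controls. It met the filter of 1 TPM in 5 libraries through centrocytes, the gate where it was high. Its zone p-values and its place in the counts therefore give no independent support. Cd36, a scavenger receptor that B cell subsets also express, averaged 114 ± 18.8 and 113 ± 25.2 TPM in mutant and control centrocytes, against 26.7 ± 7.61 and 70.4 ± 31.6 TPM in mutant and control centroblasts. On the log2 scale it fell by 1.30 ± 0.23, limma adjusted p = 0.0041, in mutant against control centroblasts, where 3.38% of all tested genes were lower. This was the 1 genotype call in the list. Dnase2a, the lysosomal nuclease that digests engulfed DNA, averaged 49.6 ± 4.49 and 46.7 ± 3.52 TPM in mutant and control centrocytes, against 29.1 ± 7.65 and 26.4 ± 3.94 TPM in mutant and control centroblasts. Mfge8, a bridge to dying cells that follicular dendritic cells secrete, averaged 6.47 ± 2.05 and 6.70 ± 1.87 TPM in mutant and control centrocytes, against 6.84 ± 1.11 and 5.92 ± 0.761 TPM in mutant and control centroblasts and did not pass between the zones. Itgb3, an integrin chain, was the gene that fell in control centrocytes, with a log2 fold change of -0.93 ± 0.26, adjusted p = 0.00949. Timd4, Stab1, Gas6 and Pros1 had group means of at most 0.321 TPM.

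Red pulp macrophage, iron and haem genes, 16 listed and 12 tested, rose in 7 cases and fell in 2 in mutant centrocytes, and rose in 8 and fell in 1 in control centrocytes, with median log2 fold changes of 0.75 in mutants and 0.93 in controls. Against 48.8% of all tested genes higher and 12.6% lower in mutants, the list's counts in mutants were near the background, while 21.2% of all were higher and 9.48% lower in controls. Those that rose in both genotypes included Slc40a1 and Spic, with log2 fold changes of 1.97 ± 0.32, adjusted p = 3.32e-05, and 1.68 ± 0.26, adjusted p = 2.25e-05, in mutants. Blvrb, a biliverdin reductase that red cell precursors also express, ran the other way, with 463 ± 25.3 and 422 ± 63.1 TPM in mutant and control centrocytes, against 1345 ± 129.6 and 899 ± 46.2 TPM in mutant and control centroblasts. On the log2 scale it fell by 1.53 ± 0.09, limma adjusted p = 5.05e-11, in mutant centrocytes. It rose by 0.58 ± 0.09, limma adjusted p = 0.0013, in mutant against control centroblasts. In that comparison 3 of 5 tested erythroid genes were also higher, against 0.905% of all tested genes. The 10 erythroid genes found summed to 331 to 824 TPM in mutant centroblasts, against 36.4 to 280.3 TPM in control centroblasts. In centrocytes they summed to 244 to 599 TPM in mutant libraries, against 55.1 to 283 TPM in control libraries. The part of red cell RNA in these levels was not tested. Marco, Cd163 and Siglec1, of marginal zone and other macrophages, had group means of at most 0.875 TPM.

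C1q acts together with the proteases C1r and C1s, whose genes were near 0 here. C1ra, C1s and C1rl had group means of at most 0.205 TPM, and C2 and C4b, whose products are cleaved next in the classical pathway, of at most 0.571 TPM. Of 25 other complement genes found, 11 were tested, of which 5 rose and 1 fell in mutant centrocytes and 4 rose and 1 fell in control centrocytes. This was near the background in mutants, where 48.8% of all tested genes were higher and 12.6% lower, and the controls had 21.2% of all higher and 9.48% lower. The list's median log2 fold change was 0.31 in mutants and 0.05 in controls, where those of all tested genes were 0.34 and 0.14. They included the receptor gene Cr2, which B cells express, with 262 ± 40.6 and 319 ± 68.1 TPM in mutant and control centrocytes, against 66.6 ± 19.7 and 128 ± 52.4 TPM in mutant and control centroblasts. Cfb, whose product forms the alternative convertase that properdin stabilises, averaged 3.48 ± 1.36 and 2.72 ± 0.264 TPM in mutant and control centrocytes, against 2.75 ± 0.529 and 3.13 ± 0.505 TPM in mutant and control centroblasts, and C3 averaged 1.09 ± 0.332 and 1.21 ± 0.625 TPM in mutant and control centrocytes, against 0.771 ± 0.252 and 1.08 ± 0.241 TPM in mutant and control centroblasts. Neither passed in any comparison.

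Marker genes of the other cell types that a sort could hold moved in different ways between the zones. Their counts stand beside 48.8% of all tested genes higher and 12.6% lower in mutant centrocytes, and 21.2% higher and 9.48% lower in control centrocytes. Of 10 monocyte genes 4 were tested and rose in mutant centrocytes, and 3 of them in control centrocytes. They included Plac8 and Nr4a1, which B cells also express, and Ly6c2, while Ccr2, F13a1 and Vcan had group means of at most 0.267 TPM. The summed level of the 10 was 339.6 to 729.5 TPM in mutant centrocytes, 200.004 to 404 in control centrocytes, 42.6 to 140.0 in mutant centroblasts and 42.9 to 71.4 in control centroblasts. Of 11 dendritic cell genes 4 were tested, and Bst2, Ccr7 and Itgax rose in centrocytes of both genotypes, while Clec9a, Clec10a and Xcr1 had group means of at most 0.290 TPM. Of 14 genes of follicular dendritic cells and stroma 3 were tested, and the 2 that rose, Fcgr2b and Cr2, are also expressed by B cells. Pdpn and Serpina1a were at 0 in all 20 libraries, and Col1a1, Col1a2 and Col3a1 had group means of at most 0.0757 TPM. Of 12 T cell genes 3 were tested, of which 1 rose in mutant and 2 in control centrocytes, and of 7 NK cell genes 2 were tested, of which 1 rose in each genotype. Of the 12 B cell identity genes, 7 rose and 2 fell in mutant centrocytes, and 5 rose and 1 fell in control centrocytes. Of 12 germinal centre B cell genes, 3 rose and 7 fell in mutants, and 2 rose and 4 fell in controls. The identity genes had counts near the background in mutants, and median log2 fold changes of 0.37 in mutants and 0.25 in controls, where those of all tested genes were 0.34 and 0.14. Those of the germinal centre genes were -0.38 in mutants and 0.10 in controls. Between mutant and control centrocytes, where 0.896% of all tested genes were higher in mutants, 2 of the 4 tested monocyte genes were higher in mutants, as were 2 of the 4 dendritic cell, 1 of the 2 NK cell and 1 of the 5 erythroid genes, and in centroblasts none of the tested monocyte, dendritic or NK cell genes was called. Itgax, with a log2 fold change of 1.89 (limma adjusted p = 0.00197), was among those higher in mutant centrocytes, and Itgam and Itgax, also listed as complement receptors, were the 2 complement genes higher there. Between genotypes no B cell identity gene was called, against 1.2% of all tested genes in centrocytes and 4.29% in centroblasts. Of the germinal centre B cell genes 1 was higher in mutant centroblasts, against 0.905% of all tested genes. The part of any of these cells in the macrophage levels was not tested.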

How the data were processed

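RNA of sorted B cells was measured in 20 libraries, grouped by their titles into 4 groups of 5. Libraries were made with a stranded mRNA kit, per the labels' protocols, and STAR and mm10 are named in the submitters' processing notes. The deposited unit is TPM, computed by the authors, and each file sums to 1000000. The sources used here give no aligner version, annotation or counting tool. Depth is unknown.

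Genes reaching 1 TPM in 5 or more libraries (11386 of 23382) were tested with limma 3.58.1 (R 4.3.3, trend and robust) on log2(TPM + 1), which understates changes of low genes, with 4 group means over 20 libraries and 16 residual degrees of freedom. Tests were two-sided, with Benjamini-Hochberg adjustment over all tested genes. A gene low in centroblasts could meet the filter through centrocytes alone, and the list counts between the zones can include such genes. The fit was tested on simulated data. Correlations used Python 3.11.15 with numpy 2.4.6 and scipy 1.17.1.

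The 10 genes, 13 marker lists, tests and alternatives were chosen with earlier results of these data known. All 10 genes were named, with the 10 genes most like C1q, the 5 most like each other gene, and up to 4 genes per list of the highest level. Emr1, Mertk, Tyrobp, Mfge8, Itgam, C3, Cfb and the genes at or near 0 were named after their values were seen. A few genes that the rule names are not reported here. Gene positions are from GENCODE M21 (GRCm38). Alternatives were the pseudocount, filter, scaling, moderation, groups fitted, replicate block and left-out libraries.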

Additional observations from a re-analysis of the deposited data

Results flagged for a closer look

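Within each group of 5, the highest and the lowest library of each of the 10 genes were compared with the nearest of the others, in 40 sets of gene and group. In 2 sets a library stood apart by Dixon's criterion, and chance gives about 1 such set in 20. Lyz2 was 43.7 TPM in mutant centrocyte library 1, the highest of its group, where the other 4 libraries had 22.4 to 28.6 TPM. Csf1r was 3.80 TPM in control centroblast library 5, the highest of its group, where the other 4 had 2.16 to 2.63 TPM.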

How the results depend on the processing

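Over 1390 single-gene values under the alternatives, 1359 kept their side of the threshold, 10 were no longer past it and 21 came past it. Of the values past the threshold in the main analysis or in the alternative, 0 changed sign. Values past it in neither could change sign and are counted among the 1359. Those of C1qb between genotypes in centrocytes ran from -0.40 to 0.13 on the log2 scale. Between the zones, the counts of macrophage genes called were 8 to 9 in mutants and 8 to 10 in controls when 1 library was left out in turn. The genotype comparisons and their difference stayed at 0 of 10 under those omissions. Without both mutant centroblast libraries 4 and 5, 2 genes were called between genotypes in centrocytes, and with scaling by the median of ratios 1 was called in centroblasts. The median r between the genes was 0.503 to 0.772 in centrocytes and 0.464 to 0.7102 in centroblasts when 1 library was left out. In centroblasts it was 0.414 with scaling by the median of ratios and 0.105 without mutant libraries 4 and 5. There it was 0.327 without the 2 libraries farthest from the median of the first gene of each pair. The cause was not tested. The fit of only the groups compared was not run for the difference.

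With the replicate number as a block (the replicate block), 9 genes were called between the zones in mutants, 10 in controls, 1 (Mpeg1, adjusted p = 0.0207 by limma) between genotypes in centrocytes, 0 in centroblasts and 0 for the difference. Same-numbered libraries correlated over 0.1 in 4 of 5 pairs between the zones in mutants and 4 of 5 in controls, in 3 of 5 between genotypes in centrocytes and 1 of 5 in centroblasts. The numbers were therefore not taken as pairs. A library correlated best with its own number in 3 of 5 cases between the zones in mutants, 4 in controls, 2 between genotypes in centrocytes and 1 in centroblasts.

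Over all tested genes, 137 were called between genotypes in centrocytes. The count was 83 with a pseudocount of 0.1, 84 with a filter of 5 TPM, 301 with those groups alone, 242 with the block, 387 without mutant centroblast libraries 4 and 5, and 44 to 238 with 1 library left out. In centroblasts 488 were called, against 270 with no filter, 24 with those groups alone, 793 with the block, and 147 to 3102 with 1 left out, the highest without mutant centroblast library 1. Between the zones in controls 3498 were called, against 5417 without libraries 4 and 5. For the difference 2 were called, against 14 with the block, 4 without libraries 4 and 5, 0 with the median of ratios or without trend, and 0 to 7 with 1 left out. TPM keeps no depth, so a counting limit for the lowest values, such as Csf1r in centroblasts, cannot be given.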
